A study of Mus musculus with 28 samples.

Results

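The genes described here are 10 markers of immature olfactory sensory neurons: Gap43, Gng8, Dpysl3, Dpysl5, Crmp1, Ncam1, Stmn1, Stmn2, Stmn4 and Tubb3. They were chosen by name among 21757 protein-coding genes, and all 10 were found in the gene table. The question was which proteins were bound at these genes in mature neurons, where they are known to be turned down. All peaks of the 11 deposited lists that lay within the gene body extended by 10 kb, or by 50 kb, were counted. Every list comes from chromatin immunoprecipitation and sequencing on formaldehyde-fixed, sorted cells of the mouse main olfactory epithelium. Ldb1 was mapped in mature neurons without Lhx2 (2 libraries), which carried OMP-IRES-Cre, Lhx2fl/fl and the tdTomato reporter allele Rosa-CAG-tdtom+/fl, so that the gene was lost after the neuron had begun to express Cre from the Omp locus. It was also mapped in Olfr1507+ cells of M28-IRES-GFP mice (2 libraries), that is, neurons marked for a single odorant receptor. The control neurons carried OMP-IRES-GFP, and in them Ldb1 (3 libraries), Rad21 (2 libraries) and CTCF (2 libraries) were mapped. The labels for these libraries give no ages. Nothing in them ties the libraries to separate animals, and p-values therefore measure a spread between libraries that may be technical. The lists hold no expression values, and whether the sorted cells made these transcripts was not analysed here; the label of the gene list rests on its name alone.

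A newborn olfactory neuron sends its axon to the olfactory bulb before it matures and makes Omp, and while the axon grows it makes proteins of the growth cone and the cytoskeleton. Gap43 is the classic growth cone protein of that stage, Gng8 is a G-protein gamma subunit, the Dpysl family (which includes Crmp1) links semaphorin signals to microtubules, stathmins bind free tubulin, Tubb3 is a neuronal beta-tubulin and Ncam1 is a cell adhesion molecule. Ldb1 is a cofactor without a DNA-binding domain that LIM-homeodomain factors such as Lhx2 bring to DNA. Rad21 belongs to cohesin, and CTCF is the DNA-binding protein at which cohesin often stops.

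The RefSeq promoter table (GRCm38.p6) held 5 starts for 4 of the 10 genes, and a peak of at least 1 library covered part of the 250 bases before 3 of these starts. They are shown because they are the only start sites of the listed genes at which a peak can be read against sequence. The capitals mark a match to the EBF palindrome, a site of Ebf factors, searched as TCCC and GGGA with any 2 bases between them. The LHX2 core, TAATTA, and the CTCF core, searched as CCA, AGG and GGC set 2 bases and 1 base apart, had no match below. All were searched on both strands.
Dpysl5, chr5:30711314-30711563, plus strand: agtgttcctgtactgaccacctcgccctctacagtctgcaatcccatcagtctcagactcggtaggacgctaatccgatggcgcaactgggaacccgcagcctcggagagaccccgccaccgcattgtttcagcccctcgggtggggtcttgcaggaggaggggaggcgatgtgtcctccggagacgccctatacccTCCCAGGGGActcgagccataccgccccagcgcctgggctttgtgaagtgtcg
Crmp1, downstream start, chr5:37245514-37245763, plus strand: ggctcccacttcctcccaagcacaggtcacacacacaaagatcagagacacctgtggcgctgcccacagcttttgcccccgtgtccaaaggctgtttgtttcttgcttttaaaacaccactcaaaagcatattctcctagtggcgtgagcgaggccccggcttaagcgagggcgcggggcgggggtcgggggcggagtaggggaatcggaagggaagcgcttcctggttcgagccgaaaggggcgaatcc
Tubb3, chr8:123411303-123411552, plus strand: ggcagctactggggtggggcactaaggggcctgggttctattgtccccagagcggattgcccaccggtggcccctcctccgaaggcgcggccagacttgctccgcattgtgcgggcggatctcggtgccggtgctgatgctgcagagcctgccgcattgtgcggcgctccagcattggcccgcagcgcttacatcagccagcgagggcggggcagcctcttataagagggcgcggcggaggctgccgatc
At Dpysl5 the peak came from the first Lhx2 KO library alone, from 30711309 to 30711552. It covers the palindrome, which lies from 30711511 to 30711520, and it was a weak one, with a score of 10 and a mean rank of 2906 among 4290 peaks. At the downstream start of Crmp1 both Rad21 libraries had a peak, ranked 4667 of 10487 and 4583 of 28151, and the second CTCF library had one ranked 12183 of 34210. At Tubb3 the second Rad21 library alone had a peak, with a mean rank of 12091.5 of 28151. Over all 32851 promoter entries, 0.779% held the EBF palindrome, 4.84% the LHX2 core and 0.816% the CTCF core in the same 250 bases; a match is a description of letters, not of a bound factor.

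Ldb1 was found at every one of these genes in mature control neurons. A region here is a stretch of linked peaks with a peak in at least 2 libraries of a group. Within 10 kb such a region of control Ldb1 was present at all 10 genes, against a background of 39.7% of protein-coding genes, and within 50 kb again at all 10, against 62.5%. Longer genes collect more regions, and the share among all protein-coding genes was 26.1% for bodies under 20 kb, 48.9% for 20 to 100 kb and 76.7% for 100 kb or more; the listed genes counted 4 of 4, 4 of 4 and 2 of 2 in these classes. Stmn1 was the least secure of the 10, since its only region within 10 kb had a peak in the first and second control library and none in the third, and 9 genes counted when either of the first 2 libraries was left out. Together the genes held 46 control Ldb1 regions within 10 kb and 61 within 50 kb. Of the 61, 45 had a peak in all 3 control libraries, 73.8% beside 65.2% of all control Ldb1 regions, and 9 were among the strongest 10%. The strength of a region is the mean percentile of its score within the control lists, where 100 is the strongest peak of a list and a library without a peak counts as 0. The median over the 61 was 53.7, beside 45.3 for all control Ldb1 regions. For the 16 regions found in 2 of 3 libraries, the mean over the libraries with a peak is 1.5 times the value given; with that mean the medians were 55.9 and 49.6, and 9 of the 61 were again among the strongest 10%. Of the 61, 40 lay inside the listed gene, 23 of them in Ncam1. Another 9 lay inside another protein-coding gene and 12 outside any. The same split over all control Ldb1 regions was not counted, and exons and introns could not be told apart with the table used. Ncam1 alone held 24 of the 46. In bulk chromatin, strong binding in a few cells and weak binding in many cannot be told apart.

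**Figure D1:**
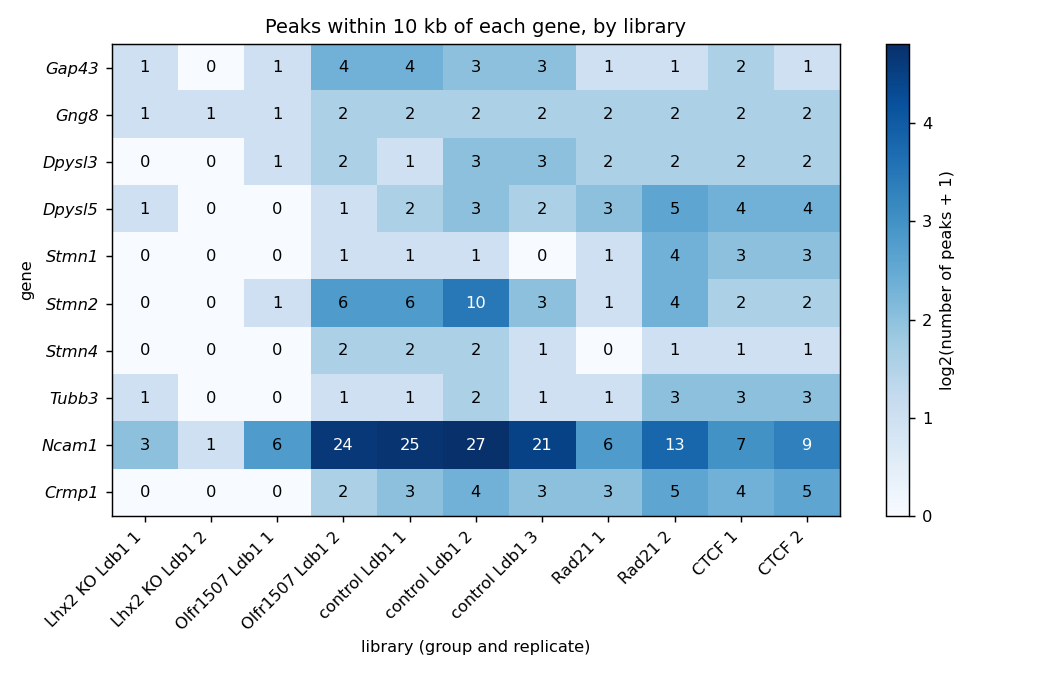
Number of peaks within 10 kb of each gene (rows) in each library (columns); colour gives log2 of the number plus 1. Ncam1 had 25, 27 and 21 peaks in the control Ldb1 libraries, and the first and second Lhx2 KO library had a peak at 5 and 2 of the 10 genes.

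Per length, the genes held 4.93 control Ldb1 regions per 100 kb of gene body with its 10 kb flanks, against 1.295 over all protein-coding genes. Without Ncam1 the density was 3.57. The single genes lay between 1.46 per 100 kb for Dpysl3 and 8.43 for Gng8, and Stmn2 came second with 8.32. Dpysl5 had 1.86 and Gap43 had 2.68. Of protein-coding genes, 68.1% had a lower density than Dpysl3 and 71.5% a lower one than Dpysl5. The value of Gng8 rests on 2 regions. For Rad21 the density was 2.04 per 100 kb, against 0.565 over all genes, and for CTCF it was 3.11, against 1.42. All 3 densities were above those over all genes; these values describe the list and were not tested.

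Other lists set the range of the scale. Genes of mature neurons counted 10 of 10 for control Ldb1 within 10 kb, at 6.52 per 100 kb; Ano2, an olfactory chloride channel, had 15 regions and Gnal, the olfactory G-protein alpha subunit, had 12. Some genes stand in more than 1 of these lists. The relatives of the listed genes, 14 genes that include Ncam2 with 14 regions and Dpysl2 with 6, counted 7 of 14, at 2.69 per 100 kb. The other growth cone and immature neuron genes counted 6 of 10, at 3.29 per 100 kb; Map1b, a microtubule-associated protein, had 8 regions and Dcx, a microtubule protein of migrating neurons, had 4. Genes of basal cells and progenitors counted 3 of 10, genes of sustentacular cells and glands 2 of 10 and genes of glial, immune and vascular cells 4 of 10, at 0.527, 0.639 and 0.769 regions per 100 kb. Median gene lengths were 13.6 kb for mature neuron genes, 6.61 kb for relatives and 10.7 kb for the other growth cone genes. They were 5.09, 7.18 and 17.6 kb for the basal, sustentacular and glial lists, against 51.1 kb for the 10 genes. Of all protein-coding genes under 20 kb, 26.1% had a control Ldb1 region within 10 kb. Rad21 ran from 0.176 per 100 kb (basal) to 1.92 (sustentacular) over these lists, and CTCF from 0.527 (basal) to 3.38 (mature neuron). These differences between lists were not tested.

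**Figure D2:**
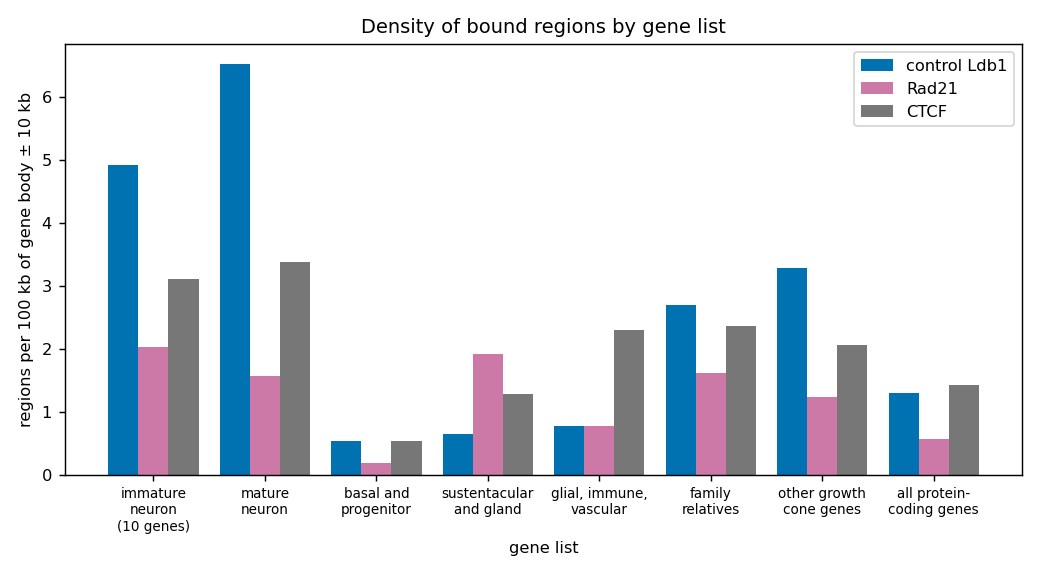
Regions per 100 kb of gene body with 10 kb flanks (vertical axis) for control Ldb1, Rad21 and CTCF, by gene list; the bars carry no error, since each is 1 value over a list. The 10 immature neuron genes stand at 4.93 for Ldb1, next to 6.52 for mature neuron genes and 1.295 for all protein-coding genes.

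Gap43 and Gng8 carried the strongest Ldb1 regions of the list. Gap43 (chromosome 16, 42248552 to 42340651) had a region inside the gene from 42277714 to 42278051 at percentile 99.3, with scores of 379, 414 and 252 in the 3 control libraries. Those scores ranked 152.5 of 24877 peaks, 194 of 28879 and 153 of 16067, tied scores sharing their mean rank. It lay 0.902 kb from the only CTCF region of the locus, which a Rad21 region at percentile 91.1 overlapped, and neither touched it. A further region at percentile 93.3 lay 40.8 kb above the upper end of the gene, with no other protein-coding gene within 50 kb of Gap43. Inside the gene, the other regions stood at percentiles 28.2 and 77.6.

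Gng8 (chromosome 7, 16891737 to 16895451) is the shortest gene of the list, at 3.72 kb, and it lies among 5 other protein-coding genes within 50 kb. Its own body held 1 control Ldb1 region, from 16894300 to 16894637 at percentile 98.1, and this region lay 2.51 kb downstream of the annotated start. The strongest region of the whole list stood 27.8 kb below the gene, from 16863544 to 16863894 at percentile 99.5. It ranked 105.5, 112.5 and 104 in the 3 control lists, but it lies inside Prkd2, which encodes a protein kinase, so its assignment to Gng8 is by distance only. Within 50 kb of Gng8 lay 5 Rad21 and 11 CTCF regions. Both proteins had a region just downstream of the Gng8 start, at 0.246 kb for Rad21 and 0.270 kb for CTCF.

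Ncam1 (chromosome 9, 49502129 to 49799393) is 297 kb long and held 23 control Ldb1 regions in its body. They were spread unevenly along it, with 18 nearer the upper end of the body and 5 nearer the lower end. The density with flanks was 7.57 per 100 kb, and 97.5% of protein-coding genes had a lower one. The strongest region lay from 49674747 to 49675101 at percentile 97.1, ranked 706, 635 and 583.5 in the control lists. Another 3 regions of the strongest 10% lay close together from 49745685 to 49754912, at percentiles 94.1, 96.1 and 94.7. The strongest Rad21 region of the list, at percentile 99.2, was also in Ncam1, from 49715131 to 49715434; it overlapped a CTCF region and lay 0.430 kb from the nearest control Ldb1 region. Below the lower end of the gene, 3 sites at 7.85 to 16.5 kb held Rad21 and CTCF regions without Ldb1.

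**Figure D3:**
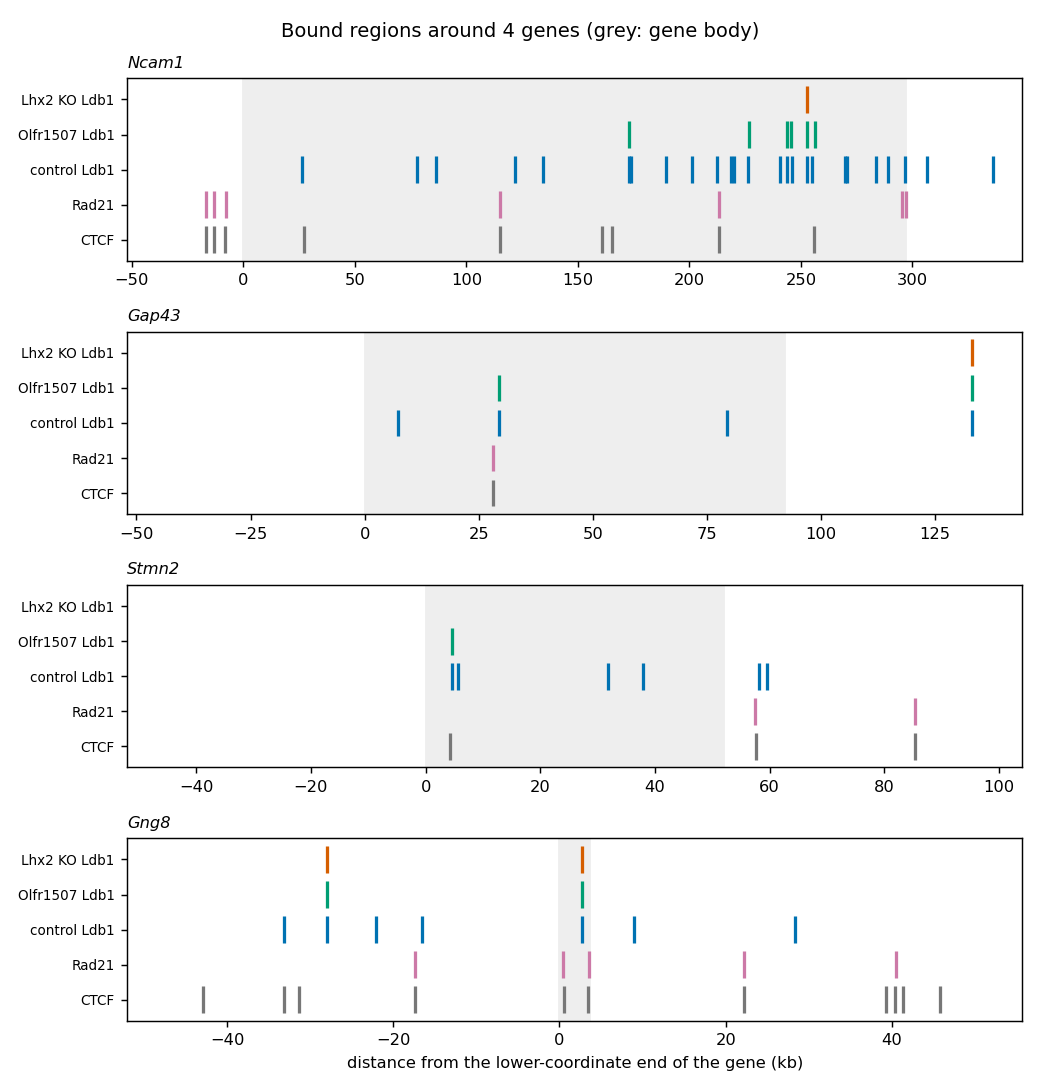
Regions of each group (rows) around Ncam1, Gap43, Stmn2 and Gng8, as distance in kb from the lower-coordinate end of the gene; grey marks the gene body. Ncam1 shows 18 of its 23 intragenic control Ldb1 regions nearer the upper end, and Stmn2 has no Lhx2 KO region.

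The genes of the Dpysl family held 2 to 3 Ldb1 regions each within 10 kb, none of them above percentile 81.7. Dpysl3 (chromosome 18, 43320979 to 43438286) had 2 regions in its 117 kb. The stronger, from 43366456 to 43366826, stood at percentile 81.1, and the weaker, found in 2 of 3 libraries, at 6.62 (9.94 over the libraries with a peak). Dpysl5 (chromosome 5, 30711564 to 30799369) had 1 region 3.64 kb before its start at percentile 62.8 and 1 inside, in 2 of 3 libraries, at 7.28 (10.9 over the libraries with a peak). Crmp1 (chromosome 5, 37242058 to 37292163) had 3 regions inside the gene, at percentiles 45.5, 51.9 and 81.7, the last from 37269114 to 37269465. Architecture proteins were present at all 3 genes. Dpysl5 had 3 Rad21 and 4 CTCF regions within 10 kb, Crmp1 3 and 4, and Dpysl3 2 and 2. A pair of Rad21 and CTCF regions lay 1.44 and 1.43 kb before the start of Dpysl5, between the start and the Ldb1 region.

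The stathmin genes differed among themselves. Stmn2 (chromosome 3, 8509527 to 8561604) had 6 control Ldb1 regions within 10 kb. Its peak counts within 10 kb were 6, 10 and 3 in the 3 control libraries, a wider spread than at Gap43, with 4, 3 and 3. The strongest region, from 8513914 to 8514274 at percentile 88.1, overlapped a CTCF region, with no Rad21 region nearer than 52.6 kb. In the gene body the second Rad21 library had 3 peaks and the first none. Stmn4 (chromosome 14, 66344210 to 66361680) had a region across its lower end, from 66344102 to 66344489 at percentile 53.7. Its strongest, at percentile 97.0, lay 18.8 kb below the gene, from 66325065 to 66325402. This region was nearer to Trim35, at 13.6 kb, so its assignment to Stmn4 is by the window only. Stmn1 (chromosome 4, 134468320 to 134473843) had 3 regions within 50 kb at percentiles 30.9 to 53.2, the lowest maximum of the 10 genes; the region at 30.9, in 2 of 3 libraries, stood at 46.3 over the libraries with a peak. A CTCF region at percentile 99.2, overlapped by a Rad21 region at percentile 91.9, lay 4.19 kb above the upper end of Stmn1. It lay 6.49 kb from the nearest control Ldb1 region. Tubb3 (chromosome 8, 123411553 to 123422015) had 1 region inside the gene, 1.04 kb after the start, from 123412591 to 123413070 at percentile 82.8. In the control libraries it ranked 3354.5, 4176 and 3785. A further region at percentile 72.1 lay 21.2 kb below Tubb3, inside Tcf25.

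Few Ldb1 regions at these genes overlapped a Rad21 or CTCF region, as was so for control Ldb1 regions over the genome. Their median distance to the nearest Rad21 region was 18.8 kb, beside 41.9 kb for all control Ldb1 regions. To the nearest CTCF region it was 13.4 kb, beside 21.3 kb, and these distances were not tested. Of the 61 regions, 2 overlapped a Rad21 region, 3.28% (95% Wilson interval 0.904 to 11.2%) beside 3.82% of all control Ldb1 regions. With CTCF the overlap was 3 regions, 4.92% (1.69 to 13.5%), beside 4.52%; peaks of the first and second CTCF library lay at 3 and 6 regions, beside 4.76% and 9.22% of all control Ldb1 regions. The 3 with CTCF were at Gng8, Stmn1 and Stmn2, and the 2 with Rad21 at Stmn4 and Ncam1. The Rad21 libraries differed here too: the first had a peak at 3 of the 61 regions and the second at 17, or 27.9% (18.2 to 40.2%), beside 4.32% and 23.3% of all control Ldb1 regions. Of these 17, 5 were at Stmn4, where 5 of 6 regions had one, and 5 at Ncam1. By strength, 3 of the 9 strongest regions had a peak of the second Rad21 library, beside 50.2% of all regions of that strength, and 14 of the other 52, beside 20.3%. Rad21 regions within 10 kb were found at 9 of the 10 genes, against a background of 31.6%, with Stmn4 the exception, and CTCF regions at all 10, against 56.5%. Within 50 kb both were at all 10 genes, against 56.7% for Rad21 and 78% for CTCF. Unlike that of control Ldb1, these backgrounds were not split by gene length. Of 50 CTCF regions within 50 kb, 24 overlapped a Rad21 region, 48.0% beside 36.8% of all CTCF regions. Of 28 Rad21 regions within 50 kb, 24 overlapped a CTCF region, 85.7% beside 92.5% of all Rad21 regions, and the 4 others were at Stmn4, Crmp1 and Ncam1. Wilson intervals cover counting error only.

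Ldb1 had few peaks at these genes in neurons without Lhx2, in lists that were short throughout. The Lhx2 KO lists held 4290 and 542 peaks, against 16067 to 28879 in the control Ldb1 lists. Within 10 kb, Gng8 and Ncam1, 2 of the 10 genes, had an Lhx2 KO region, against a background of 1.54% of protein-coding genes. Within 50 kb there were 5, with Gap43, Stmn4 and Tubb3, against 3.59%. Neither background was split by gene length. The Lhx2 KO region at Tubb3, from 123373518 to 123373784, lay 37.8 kb below the gene, inside Tcf25. It overlapped a CTCF region and no control Ldb1 region, and only the first control library had a peak there, at percentile 9.74. Of the 61 control Ldb1 regions, 11 had a peak in the first Lhx2 KO library, 18.03% (Wilson interval 10.4 to 29.5%), beside 12.7% of all control regions. In the second library 5 had one, 8.20% (3.55 to 17.8%), beside 2.17%. All 5 were among the 11, so that 11 had a peak in at least 1 library, beside 13.2%, and 5 in both, beside 1.68%. By strength, 6 of 9 regions of the strongest 10% had a peak in at least 1 library, beside 38.8% of all such regions. Of the other 52, 5 had one, or 9.62%, beside 10.3%. The share with a peak in both libraries was not split by strength, and all 5 such regions stood at percentile 93.3 or above. Peaks of both Lhx2 KO libraries lay at both strong Gng8 regions, at the strongest Stmn4 region, at the outer Gap43 region and at the Ncam1 region from 49754552 to 49754912. The region below Gng8 had a score of 13 in the first Lhx2 KO library and of 32 in the second, where it ranked 3 of 542 peaks.

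Other genes had no peak at any of their control regions. The control Ldb1 regions within 50 kb of Stmn1, Stmn2, Dpysl3, Dpysl5 and Crmp1 numbered 3, 6, 2, 2 and 4. None of them had a peak in either Lhx2 KO library, and none was among the strongest 10%. Of all control Ldb1 regions outside the strongest 10%, 10.3% had a peak in at least 1 Lhx2 KO library. At Ncam1, 22 of 25 regions had none, among them 3 of the 4 strongest. A peak in at least 1 Lhx2 KO library lay at 13.2% of all control Ldb1 regions and at 38.8% of the strongest 10%. At Gap43 the region at percentile 99.3 had a peak in the first library, with a score of 14 and a mean rank of 1093, and none in the second. Both control regions at Tubb3 had a peak in the first library and neither in the second. Within 50 kb of the genes lay 14 peaks of the first and 6 of the second Lhx2 KO library. Of these, 2 lay outside every control Ldb1 peak: the one at the Dpysl5 start and one near Calm3, 28.7 kb above Gng8. The share of all Lhx2 KO peaks outside control Ldb1 peaks was not counted here. The read depth behind the short lists is unknown, and a missing peak there does not show that Ldb1 was absent.

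**Figure D4:**
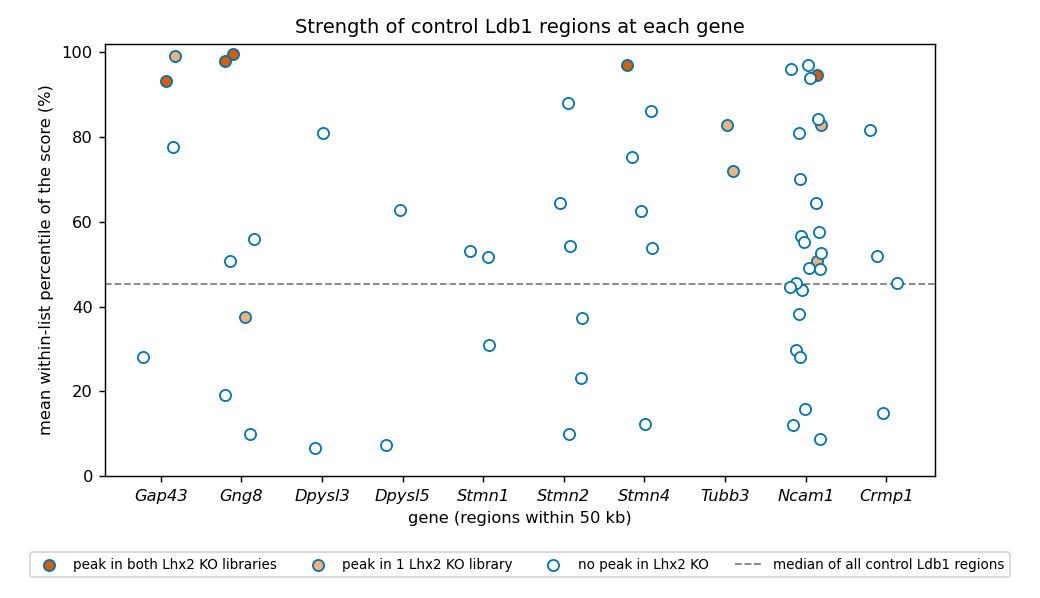
Each point is a region of control Ldb1, placed over the gene within 50 kb of it, at its mean within-list percentile; fill shows whether 2, 1 or 0 Lhx2 KO libraries had a peak there, and the dashed line is the median of all control Ldb1 regions, 45.3. The 5 regions with a peak in both Lhx2 KO libraries all lie at percentile 93.3 or above.

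In Olfr1507+ cells the longer of the 2 lists had peaks at most of the control Ldb1 regions of these genes, and the shorter at few. The second Olfr1507 list (21250 peaks) had a peak within 10 kb of all 10 genes and at 51 of the 61 control Ldb1 regions, 83.6% (Wilson interval 72.4 to 90.8%), beside 73.5% of all control regions. The first list (5095 peaks) had a peak within 10 kb of 5 genes and at 13 regions, 21.3% (12.9 to 33.1%), beside 21.8%. At least 1 library had a peak at 51 regions, beside 73.7%, and both at 13, beside 21.6%. As Olfr1507 regions, which need both libraries, Gap43, Gng8, Dpysl3, Stmn2 and Ncam1 had one within 10 kb. These were 5 of 10 genes, against a background of 11.6%. Within 50 kb Stmn4 made it 6, against 22.9%, and neither background was split by gene length. All 9 regions of the strongest 10% had a peak in both Olfr1507 libraries, beside 95.8% of all such regions, and 99.8% of them had one in at least 1 library. Of the other 52, 42 had a peak in at least 1 library, beside 70.8%, and 4 in both, beside 13.4%. Ncam1 had 6 and 24 peaks within 10 kb in the 2 Olfr1507 libraries, against 25, 27 and 21 in the control libraries. The mature neuron genes counted 10 of 10 for Olfr1507 regions within 10 kb, and the difference from 5 of 10 was not tested.

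Because the lists differ in length, the share of each list that lay within 50 kb of the 10 genes was compared between groups by exact permutation of the libraries, two-sided, in 4 comparisons with Benjamini-Hochberg adjustment. For Ldb1 without Lhx2 it was 0.326% and 1.11% (14 of 4290 and 6 of 542 peaks), against 0.257%, 0.256% and 0.311% in control neurons. In the full lists both values lay above the 3 control values, and the second rests on 6 peaks. The means differed by 0.442 points (exact permutation p = 0.1, which is the smallest that 10 assignments allow, adjusted p = 0.2). With the second Lhx2 KO library left out the difference was 0.0514 points (exact permutation p = 0.25), and with a window of 10 kb it was 0.0564 (exact permutation p = 0.7). Among the strongest 542 peaks of each list, 2 and 6 lay near the genes without Lhx2, against 3, 3 and 2 in control neurons. The control shares then stood at 0.554%, 0.554% and 0.369%, higher than in the full lists. Among the strongest 4290 peaks the first Lhx2 KO library had 14, against 15, 16 and 15, while the second list held only 542. At neither length did the first Lhx2 KO library lie above the control values.

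In Olfr1507+ cells the share was 0.275% and 0.273%, against the same 3 control values, and the groups overlapped (difference -0.00104 points, exact permutation p = 1.0). Without the third control library the difference was 0.0171 points. With each list cut to its 5095 strongest peaks, the length of the shorter Olfr1507 list, 14 and 15 peaks lay near the genes in Olfr1507+ cells, against 18, 18 and 19 in control neurons. The groups did not overlap there (difference -0.0752 points, exact permutation p = 0.1, the smallest 10 assignments allow). Among the strongest 4290 peaks of each list, 13 and 13 lay near the genes in Olfr1507+ cells, against 15, 16 and 15 in control neurons. The Lhx2 KO and Olfr1507 comparisons share their control libraries. Rad21 had 0.277% and 0.242% of its peaks near the genes, against 0.188% and 0.167% for CTCF; the groups did not overlap, but 2 libraries against 2 cannot go below the exact permutation p of 0.333 (difference 0.0816 points, adjusted p = 0.444). With each list cut to its 10487 strongest peaks, the length of the shorter Rad21 list, 29 and 28 Rad21 peaks lay near the genes, against 26 and 35 CTCF peaks, a difference of -0.0191 points. Among the strongest 4290 peaks the numbers were 16 and 14 for Rad21, against 10 and 11 for CTCF. Control Ldb1, at 0.275% ± 0.0314 (SD, n = 3), lay above CTCF at 0.178% ± 0.0154 (SD, n = 2; difference 0.0974 points, exact permutation p = 0.1, adjusted p = 0.2). Without Ncam1 that difference was 0.0170 points (exact permutation p = 0.3). None of the 4 comparisons passed a threshold of 0.05, which none of them could reach with these numbers of libraries.

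**Figure D5:**
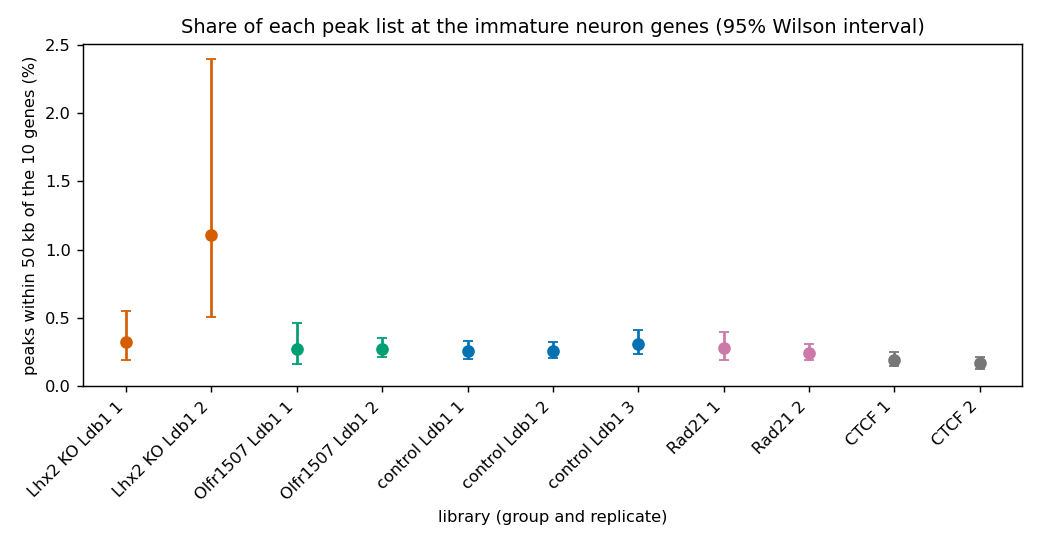
Percent of the peaks of each list that lie within 50 kb of the 10 genes, by library, with 95% Wilson intervals for counting error. The second Lhx2 KO library stands at 1.11%, from 6 of 542 peaks, and the other 10 libraries between 0.167% and 0.326%.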

How the data were processed

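Of 28 samples, the 11 chromatin immunoprecipitation libraries with a peak list were used; the 14 RNA and 3 input samples were not analysed here. The submitters' processing notes name build mm10, HOMER 4.7, Picard, SAMtools 1.3.1, STAR 2.5.3a, Bowtie2 2.3.2 and cutadapt 1.9.1, without their roles. Each list belongs to 1 library. Peak threshold and control: not given in the sources used here. Peaks carry a deposited score from the authors, whose scaling is unknown; it served for ranks inside each list, tied scores sharing a mean rank. Depth is unknown.

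Only peaks of the autosomes, X and Y entered. Regions are linked peaks (overlap of 1 base) of at least 2 libraries of a group. Gene bodies came from RefSeq (GRCm38.p6), without genes on scaffolds. Overlaps and regions were tested on simulated data. Shares of lists were compared by exact permutation of libraries (Python 3.11.15, SciPy 1.17.1). The text describes all 10 genes, and for each gene mainly the strongest region of each group; from the other lists, the genes with the most regions. Further regions named were chosen after their values were seen. The genes, lists, tests and other settings were chosen with earlier results of these data known; the gene length classes, the cut to 4290 peaks and the percentile over libraries with a peak were added after seeing the data.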

Additional observations from a re-analysis of the deposited data

How the results depend on the processing

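The number of genes with a control Ldb1, CTCF or Rad21 region within 10 kb stayed within 1.5 times its value under all settings run, at 9 to 10, 10 and 6 to 10. For the Lhx2 KO group 2 genes became 5 with a window of 50 kb or a peak in any library, 1 in the top-scoring 50% of each list, and 2 to 5 when a library was left out. For the Olfr1507 group 5 became 10 with a peak in any library, and 5 to 10 when a library was left out. The overlap of control Ldb1 regions with CTCF was 1.64% under reciprocal overlap of 50% or centres within 200 bases, and 2.17% to 9.84% over libraries left out. With Rad21 it was 29.5% with a peak in either library, and 3.33% to 27.9% over libraries left out. The share with an Lhx2 KO peak was 8.20% when both libraries were required and 8.20% to 20% over libraries left out; for Olfr1507 these values were 21.3% and 21.3% to 93.5%.

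The difference in share of peaks between Olfr1507 and control turned from -0.00104 to 0.00607 percentage points in the gene body alone, and ran from -0.0104 to 0.0171 over libraries left out; the value without the third control library was 0.0171. Its largest move was to -0.0752 (exact permutation p = 0.1) in lists cut to the shortest of the comparison, 5095 peaks. Rad21 minus CTCF turned to -0.0191 in lists cut to 10487 peaks. Leaving out or keeping all tied scores at a cut, tried after seeing the data, moved these counts by at most 2 peaks a library. The Ldb1 minus CTCF difference kept its sign under every setting run, over 0.0793 to 0.108 when a library was left out. The Lhx2 KO difference did so under every setting but the cut to 4290 peaks, over 0.0514 to 0.832 when a library was left out. That cut left only the first Lhx2 KO library, with 14 peaks near the genes, against 15, 16 and 15 in control neurons. Paired by replicate number as a replicate block, the differences were 0.460 (Lhx2 KO), 0.0171 (Olfr1507), 0.0816 (Rad21 minus CTCF) and 0.0793 (Ldb1 minus CTCF), each over 2 pairs with an exact permutation p of 0.5; 2 pairs share only a number, and the deviations of same-numbered libraries correlated at -0.164 to 0.230 over genes. The causes of these changes were not tested. Depth is unknown, and list length limits what a missing peak can show.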
